A study of Mus musculus with 8 samples.

Results

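In embryonic mouse footpad skin, 165 array probes had a measured ratio to reference RNA at least 2-fold higher at stage E17.5 than at E16.5 (embryonic days) in wild type embryos and also in embryos with a conditional Dicer knockout. They were chosen by the log2 ratio of footpad signal to reference signal, called M here. The rule asked that mean M be higher at E17.5 by at least 1 in each genotype, and that the genotypes' means at E17.5 lie less than 1 apart. It also asked for footpad signal well above background on all 4 E17.5 arrays, for reference signal well above background on all 8 arrays, and for no mark of an uneven spot or uneven local background. Of 42006 probes on the array, 23909 met the signal conditions, and the 165 were 0.690% of these. The rises and the E17.5 levels therefore chose the probes, and both are given as a description with no test.

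The study hybridised 8 arrays of total RNA from footpad skin of embryos on a C57BL6 background: DcWT (wild type) and DcKO (Dicer cKO), each taken at E16.5 and E17.5. Each of these 4 groups had 2 arrays. Each array carried RNA pooled from 3 to 5 embryos in the Cy3 channel and a Universal Mouse Reference in the Cy5 channel. No dye was swapped. The labels describe the replicates as biological, and they name neither the promoter nor the cell type in which Dicer was removed. All E16.5 arrays were on slide 1 and all E17.5 arrays on slide 2, so stage and slide cannot be told apart. On both slides DcKO took positions 1 and 2 and DcWT positions 3 and 4, so genotype and position cannot be told apart either. In bulk skin, a change in the number of cells of a type and a change in RNA per cell cannot be told apart.

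Dicer is the enzyme that cuts hairpin precursors into mature microRNAs, which pair with messenger RNAs mainly through a short seed and lower their stability or translation. Footpad skin is where the mouse forms its sweat glands, which begin as epidermal buds that grow down into the dermis before birth. Over the same days the epidermis above them stratifies and cornifies. Its outer cells then make large amounts of the messages of barrier proteins, among them small proline-rich proteins that are cross-linked into the cornified envelope.

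The scanner files give each probe a 60-base sequence and no gene. None of the 42006 probe identifiers was in the RefSeq gene table used here (GRCm38.p6), so 0 of the 165 probes carry a gene name below. The lists of epidermal, sweat gland and microRNA pathway genes, the check of Dicer itself and the check of the tissue by marker genes could not be applied. At 2 probes the sequence was identical over its overlap with the 300 bases around a RefSeq transcription start: Z00065658-1 over 58 bases at Arl6 (chr16:59639290-59639589, minus strand) and Z00066495-1 over 45 bases at Pitpnm2 (chr5:124249711-124250010, minus strand). Such an overlap places the sequence beside a start site and was not used to name the probe.

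Below are 4 sets of sequences on which the results turn, each 5′ to 3′ as the array design gives it. The first set holds the probes with the largest smaller rise of the 165:
Z00056183-1: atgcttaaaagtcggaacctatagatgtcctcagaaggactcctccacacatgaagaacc
Z00071146-1: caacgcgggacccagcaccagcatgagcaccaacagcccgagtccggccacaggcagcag
The second set holds the probes called between genotypes at E16.5 in the main fit, calls that did not hold in every setting:
Z00055820-1: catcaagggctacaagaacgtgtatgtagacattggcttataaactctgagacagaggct
Z00023072-1: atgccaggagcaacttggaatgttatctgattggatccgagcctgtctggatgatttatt
The third set reads overlapping stretches of the same strand, with the 24 shared bases in capitals:
Z00056460-1: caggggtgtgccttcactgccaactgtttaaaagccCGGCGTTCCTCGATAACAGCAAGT
Z00074555-1: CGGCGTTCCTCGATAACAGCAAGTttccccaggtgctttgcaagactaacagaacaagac
The fourth set was picked after the sequences and values had been seen. Capitals mark the codons for proline or cysteine in an open frame of the sense strand:
Z00025696-1: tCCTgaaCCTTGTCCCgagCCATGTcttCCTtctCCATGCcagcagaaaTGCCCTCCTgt
Z00030684-1: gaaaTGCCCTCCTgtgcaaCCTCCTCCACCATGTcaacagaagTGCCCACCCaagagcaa
Z00026554-1: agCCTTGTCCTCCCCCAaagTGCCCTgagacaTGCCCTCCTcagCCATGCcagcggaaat

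The median M of the 165 probes moved from near the level of the reference pool to well above it. It was 0.54 and 0.21 on the DcKO arrays of E16.5 and 0.61 and 0.66 on the DcWT arrays. At E17.5 it was 1.98 and 1.87 on the DcKO arrays and 2.14 and 2.20 on the DcWT arrays. Over the 23909 probes that could have met the rule, the median stayed between -0.06 and -0.04 on all 8 arrays. The lowest of the arrays at E17.5 thus lay above the highest at E16.5 for the median of the 165, and the second DcKO array of E16.5 lay lowest of all.

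The median rise was 1.37 in DcWT, which is 2.58-fold, and 1.31 in DcKO, which is 2.49-fold. The rises ran from 1.00 to 3.45 in DcWT and from 1.00 to 3.58 in DcKO. The lower quartile was 1.16 in DcWT and 1.12 in DcKO. Both rises reached 1.5 at 36 probes, 2 at 11 probes and 3 at 2 probes. All 4 E17.5 arrays exceeded all 4 E16.5 arrays at 165 of the 165, and at 13.8% of the probes that could have met the rule; the rule all but fixes the first count. A rise of at least 1 was found at 288 probes in DcWT, 1.20% of those that could have met the rule, and at 266 probes in DcKO, 1.11%.

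Z00056183-1 had the largest smaller rise. Its M was -1.19 and -1.54 on the DcKO arrays and -1.39 and -0.98 on the DcWT arrays at E16.5. At E17.5 it was 2.24 and 2.19 in DcKO and 2.233 and 2.304 in DcWT. The probe went from below the reference to above it in both genotypes, and the DcKO and DcWT arrays overlapped at both stages. The rise was 3.58 in DcKO and 3.45 in DcWT, but its footpad signal was well above background on only 3 of the 4 E16.5 arrays, and with a normexp background correction at offset 50 on all spots the rises were 1.18 and 1.85.

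Z00071146-1 rose by 3.36 in DcKO and 3.31 in DcWT. Its M was 0.20 and 0.25 in DcKO and 0.63 and 0.79 in DcWT at E16.5. It reached 3.65 and 3.51 in DcKO and 3.98 and 4.05 in DcWT at E17.5. The DcKO arrays were below the DcWT arrays at both stages, and the difference at E16.5 was -0.48 (limma, adjusted p = 0.086). In the footpad channel alone the rise was larger, 4.76 in DcKO and 5.76 in DcWT, and the reference channel at this probe rose by 1.41 and 2.45.

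The threshold of the rule fell within a continuous spread of values. Just inside were Z00016155-1, with rises of 1.05 in DcWT and 1.00 in DcKO, and Z00065973-1, with 1.00 and 1.41. Just outside were Z00022582-1, with 1.11 and 0.996, and Z00063598-1, with 1.48 and 0.988. The bound on the genotype difference at E17.5 left out 13 of the 178 probes that rose in both genotypes. DcKO was the lower genotype at 13 of these and the higher at 0. The last probe inside that bound was Z00057277-1, with DcKO minus DcWT at -0.997, and the first outside was Z00044624-1, at -1.08.

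Levels against the reference pool differed widely among the 165. Mean M was above 0 in all 4 groups at 97 probes, below 0 in all 4 groups at 20 probes, and crossed from below to above 0 in both genotypes at 36 probes. At E17.5 in DcWT, M exceeded 3 at 53 of the 165 (32.1%), against 4.92% of the probes that could have met the rule. The rule favours a high M at E17.5, and the 165 were dim in the reference channel, as given below. Across the 165, the size of the rise had a Pearson r of -0.209 with M at E16.5, a description over probes read on the same arrays. The same M at E16.5 is subtracted in the rise, which pushes this r below 0, and the rule selected on the rise. Nothing is read from its sign. The rise was thus found at probes already far above the reference as well as at probes far below it.

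The rise came from the footpad channel at most probes. After quantile scaling of the arrays' average intensities, which leaves M as it is (Aquantile), log2 Cy3 rose by a median of 1.55 in DcWT and 1.45 in DcKO. It rose by at least 1 in both genotypes at 153 of the 165. The reference channel changed by a median of 0.07 in DcWT and 0.06 in DcKO. Both genotypes stayed within 0.25 of no change in Cy5 at 112 probes. On this scale the 165 had a median log2 Cy5 level of 7.70, against 10.26 over the probes that could have met the rule. Their median log2 Cy3 level in DcWT was 8.24 at E16.5, against 10.27, and 10.15 at E17.5, against 10.27. By these medians, the 165 lay below those probes in the reference channel, and in DcWT close to them in the footpad channel at E17.5. The levels were not split by the size of M.

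The reference channel did move at a minority, although the same reference name stands on all 8 labels. Log2 Cy5 rose by more than 0.25 at 44 of the 165 in DcWT (26.7%) and at 35 in DcKO (21.2%). Over the probes that could have met the rule, the shares were 2.98% and 3.79%. A Cy5 rise of more than 1 was found at 11 of the 165 in DcWT and 6 in DcKO. The largest was 2.45 at Z00071146-1 in DcWT and 1.88 at Z00066594-1 in DcKO. A Cy5 rise lowers M, so at these probes the ratio rose less than the footpad signal; the part of the slide or of the neighbouring dye in it was not tested.

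Footpad signal at E16.5 was well above background on all 4 arrays at 153 of the 165 probes. At 6 probes it was not well above background on either E16.5 array of at least 1 genotype, 4 in DcWT and 5 in DcKO, so only a bound on that rise can be given. The bound sets the mean Aquantile Cy3 level at E17.5 against, for each E16.5 array, the higher of the probe's own level and the lowest level of any probe well above background. By it, Z00043292-1 rose at least 2.29-fold in DcWT and 2.48-fold in DcKO. Z00059104-1 rose at least 2.12-fold and 2.90-fold, and Z00061640-1 at least 2.02-fold and 2.10-fold. In DcKO alone, Z00024967-1 rose at least 3.05-fold and Z00074391-1 at least 3.16-fold. In DcWT alone, Z00026533-1 rose at least 1.48-fold, a bound that does not reach the 2-fold of the rule.

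The rule set both rises and bounded the E17.5 difference, so the difference between the rises is a description. The rise was larger in DcWT at 82 probes and larger in DcKO at 83, and the rises differed by less than 0.5 at 138 (83.6%), against 97.1% of the probes that could have met the rule. The median of the rise in DcKO minus the rise in DcWT was 0.003, with -0.001 over the probes that could have met the rule. Its spread from the 10th to the 90th percentile was -0.46 to 0.42 among the 165 and -0.23 to 0.23 over those probes. The rises differed by 1 or more at 4 probes, with the larger rise in DcKO at 3 of them. Of these 3, Z00022928-1 had the largest difference; it was singled out after its values were seen. Its M went from 2.88 and 1.93 to 4.96 and 4.84 in DcKO, and from 3.61 and 4.07 to 4.81 and 4.97 in DcWT. The genotypes were apart at E16.5 and overlapped at E17.5, but the difference at E16.5 of -1.44 did not pass (limma, adjusted p = 0.119). The reference channel at Z00022928-1 rose by 1.72 in DcWT and 1.27 in DcKO between the stages. In the footpad channel alone the rise was 2.765 in DcWT and 3.76 in DcKO. The largest of the 4 differences was at Z00070061-1, in the other direction, with a rise of 2.86 in DcWT and 1.30 in DcKO.

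The comparison of genotypes at E16.5 was not bounded by the rule, although the E16.5 values entered both rises. Across the array, 98 of 28334 probes tested were called between DcKO and DcWT at E16.5 (0.346%; limma moderated test, adjusted p below 0.05), 23 higher and 75 lower in DcKO. All 165 probes were among those tested. Called were 2 of them (1.21%), both lower in DcKO. The E16.5 values helped choose the 165, which can shift such a share, so this share and the next are a description. At an unadjusted p below 0.05 in either direction there were 49 of the 165 (29.7%), against 18.2% of all tested. These calls were lost when any 1 array was left out, when the E16.5 arrays were fitted alone (adjusted p = 0.192 at both probes) and with the replicate number as a block (adjusted p = 0.111 and 0.114).

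Z00055820-1 was the first of these. Its M at E16.5 was 1.11 and 0.82 in DcKO against 2.50 and 2.68 in DcWT, so both DcKO arrays lay well below both DcWT arrays. The difference was -1.63 (SE 0.116; limma, adjusted p = 0.0341), which is 3.10-fold. At E17.5 its M was 3.25 and 3.12 in DcKO and 4.18 and 4.15 in DcWT, with the same order and a smaller gap in M of -0.98. The reference channel at this probe rose by 1.09 in DcWT and 0.10 in DcKO between the stages. In the footpad channel alone the rise was 2.67 in DcWT and 2.32 in DcKO. The gap between genotypes thus narrowed in M but not in the footpad channel.

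Z00023072-1 was the other. Its M at E16.5 was 0.14 and -0.25 in DcKO and 1.55 and 1.79 in DcWT. The difference was -1.73 (SE 0.161; limma, adjusted p = 0.0351), which is 3.31-fold. At E17.5 the values were 2.66 and 2.60 in DcKO and 2.99 and 3.25 in DcWT, a gap of -0.49. The probe therefore rose by 2.69 in DcKO and 1.45 in DcWT. With normexp at offset 50 on all spots, the E16.5 difference was -0.91 at Z00055820-1 and -0.70 at Z00023072-1, and neither was called.

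More of the 165 probes were lower in DcKO than higher. Mean M at E16.5 was lower in DcKO at 113 of the 165 (68.5%) and at 48.2% of the probes that could have met the rule. The median difference was -0.13 for the 165 and 0.01 over all that could have met the rule. Both DcKO arrays lay below both DcWT arrays at 58 of the 165 (35.2%), against a background of 27.2%. They lay above at 18 (10.9%), against 28.9%. Since the E16.5 values entered the rule through the rises, these shares too are a description.

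As a count and as a median, that tilt at E16.5 rested on the second DcKO array. M was lower on it than on the first DcKO array at 142 of the 165 probes. Without it, DcKO was lower at 84 of the 165 (50.9%), with 49.2% over the probes that could have met the rule, and the median difference was -0.004. Without the first DcKO array instead, DcKO was lower at 133 and the median difference was -0.29. At Z00055820-1 and Z00023072-1 the difference without the second DcKO array was -1.49 and -1.53, so the gaps at these probes did not rest on it. The median SE of the genotype difference was 0.148 for the 165 and 0.081 over all probes tested, so the 165 were also noisier between replicates than the array as a whole.

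At E17.5, where the rule bounds the difference, DcKO was lower at 135 of the 165 (81.8%), against 48.7%. The median difference was -0.18, against 0.01. Both DcKO arrays lay below both DcWT arrays at 90 probes (54.5%), against a background of 29.9%, and above at 10 (6.06%), against 31.9%. Nothing is read from these counts, since the rule used that contrast; leaving out any 1 array of E17.5 gave between 117 and 139 probes lower in DcKO. At both stages the DcKO arrays lay below the DcWT arrays at 40 of the 165 probes, against a background of 15.4%. They lay above at both stages at 4 of the 165, against 16.1%. The counts for both stages include the E17.5 contrast, so nothing is read from them either.

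Overlapping probes gave a second reading of some of the sequences, from the same RNA and the same arrays. Z00056460-1 and Z00074555-1, which share the 24 bases in capitals above, are both among the 165. Z00056460-1 read 0.60 and 0.43 in DcKO and 0.20 and 0.37 in DcWT at E16.5, and 1.93 and 1.84 in DcKO and 2.35 and 2.37 in DcWT at E17.5. Z00074555-1 read 0.79 and 0.88 in DcKO and 0.34 and 0.63 in DcWT, then 2.31 and 2.37 in DcKO and 2.76 and 2.68 in DcWT. At both probes DcKO was the higher genotype at E16.5 and the lower at E17.5, with rises of 1.37 and 1.502 in DcKO and 2.07 and 2.233 in DcWT.

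Outside the 165, 6 probes share a run of at least 20 bases on the same strand with one of them. Of the 6, 3 met the conditions on signal and marks. At 5 of the 6, M rose by at least 0.9 in both genotypes. Among these 5, Z00022757-1 carried a mark of unevenness, and Z00025219-1 was well above background in Cy3 on only 3 of the 8 arrays. Z00073707-1, which shares 58 of 60 bases with Z00072968-1, rose by 0.95 in DcWT and 1.27 in DcKO, against 1.04 and 1.252 at its partner. It missed the rule by the DcWT rise alone. The sixth, Z00031168-1, was not well above background on any E17.5 array, and its changes of 1.21 and -0.67 went in opposite directions. On the opposite strand, 3 probes share such a run. Z00028989-1, with footpad signal well above background on all 8 arrays, shares 48 bases with Z00022706-1 and changed by 0.15 in DcWT and 0.02 in DcKO, against 1.24 and 1.36. The other two were well above background in Cy3 on 0 arrays. Z00049340-1 changed by 1.11 and 1.26, against 1.07 and 1.34 at Z00057624-1. Z00073780-1 changed by 0.36 and 1.01, against 1.73 and 1.96 at Z00061640-1.

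The probes in the fourth set read codons of proline and cysteine in dense runs. At Z00025696-1 and Z00026554-1, 12 of 19 codons in the marked frame code for one of the pair, and at Z00030684-1 11 of 19. A share of at least 50% in an open sense frame was found at 14 of the 23909 probes that could have met the rule, and 3 of the 14 are among the 165. The last 15 bases of Z00025696-1 are the first 15 of Z00030684-1. Many small proline-rich proteins of the cornified envelope have repeats of this kind, but no gene is assigned here.

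Z00025696-1 read 0.41 and 0.13 in DcKO and 0.28 and 0.25 in DcWT at E16.5, then 1.51 and 1.22 in DcKO and 1.19 and 1.44 in DcWT at E17.5. The genotypes overlapped at both stages, and the rises were 1.096 in DcKO and 1.051 in DcWT. Z00030684-1 read -0.09 and -0.29 in DcKO and -0.22 and -0.17 in DcWT, then 0.86 and 0.85 in DcKO and 1.04 and 1.24 in DcWT. The genotypes overlapped at E16.5 and lay apart at E17.5. Z00026554-1 rose by 1.09 in DcKO and 1.13 in DcWT, with overlapping genotypes at E16.5. The difference between genotypes at E16.5 was 0.004 at the first, 0.002 at the second and -0.09 at the third, with limma adjusted p = 0.993, 0.996 and 0.666. The other 11 probes with such a share had median changes of 0.02 in DcWT and 0.03 in DcKO, and the largest was 0.62 and 0.64 at Z00025502-1.

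Base composition of the 165 was close to that of the array at the median, with 45.0% G and C in both. The GC-rich end was fuller: 11 of the 165 (6.67%) had at least 65% G and C, against 2.21% of the probes that could have met the rule. All 3 sense frames held a stop codon at 20 of the 165 (12.1%), against 17.7%. The polyadenylation hexamer AATAAA, searched on the sense strand, was found in 8 (4.85%), against 7.91%, and its variant ATTAAA in 8 (4.85%), against 3.50%. No test was made of these shares.

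Since Dicer makes microRNAs, the probe sequences were searched on the sense strand for the 7-base complement of bases 2 to 8 of 5 microRNAs known from skin. These were let-7a-5p (CTACCTC), miR-203-3p (CATTTCA), miR-205-5p (ATGAAGG), miR-200b-3p (CAGTATT) and miR-30a-5p (TGTTTAC), with the mature sequences from RefSeq. A match was found in 4 of the 165 (2.42%) and in 2.91% of the probes that could have met the rule. Of these, miR-205-5p had 2, miR-203-3p and miR-200b-3p had 1 each, and let-7a-5p and miR-30a-5p had 0. A probe covers 60 bases of its transcript, so no match says only that these letters are not in that window.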

How the data were processed

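The 8 scanner files were written by Agilent Feature Extraction 9.5.1.1, per the file headers, which hold processed intensity values that the authors' scanner software had background-subtracted and dye-normalized. M is log2 of processed Cy3 over processed Cy5. Spots of 1 probe were averaged and control spots left out (43451 spots, 1417 of them controls). The deposited series matrix holds values in log10, which equal log10 of the footpad-to-reference ratio plus the mean log10 reference level of the probe to within 0.000159 at 24641 probes; its column medians were 2.2293 to 2.2374, and the authors' reason for that centring is not given in the sources used here.

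Genotypes at E16.5 were compared with limma 3.58.1 in R 4.3.3 on all 8 arrays, 1 mean per group, over unmarked probes whose footpad signal cleared the scanner's background test on each array of 1 group or more. P-values were adjusted by Benjamini-Hochberg over 28334 probes. Array precision is limited by 2 arrays per group. Same-numbered arrays did not deviate together (correlation -0.095 at E16.5 and -0.05 at E17.5). Arrays of a group correlated at 0.984 to 0.990 in M. The named probes are those with the largest smaller rise (2), the ones called at E16.5 and those next to the thresholds; other probes were singled out after their values were seen. The probes, lists and tests were chosen with earlier results of these data known. Alternatives covered background correction, normalization, channel, filter, prior, array weights, replicate block and each array left out.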

Additional observations from a re-analysis of the deposited data

How the results depend on the processing

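The number of probes meeting the rule was 165; it was 34 with normexp offset 50 on all spots (29 of them among the 165), 98 with that offset without marked spots, 305 with Cy3 alone and 36 at a rise of at least 1.5. Without 1 array it was 129 to 183. The median rise of the 165 was 1.37 in DcWT; it was 1.20, 1.18 and 1.28 with normexp offset 50 on all spots, offset 50 without marked spots and offset 10, 1.55 with Cy3 alone, and 1.26 to 1.45 without 1 array. In DcKO it was 1.31, and 0.66 with normexp offset 50 on all spots, where the cause was not tested.

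Probes called between genotypes at E16.5 numbered 98, and 0 (0 of the 165) with normexp offset 50 on all spots, with no filter on dim probes, with the 4 arrays of E16.5 alone and with the replicate block, which the numbers do not justify as a pairing. At an unadjusted p below 0.05 these limma fits had 1559, 4927, 4662 and 4575 probes. The count was 854 (23 of the 165) with normexp offset 50 and 303 (9) with offset 10, both without marked spots, 309 (10) with Cy3 alone, 321 (9) with signal on all 8 arrays, 178 (5) with array weights, 609 (17) at an adjusted p below 0.10 and 56 with median centring. Without 1 array, limma, which then lets a lone array vary like the other groups, called 0 to 5 probes and 0 to 0 of the 165: 5 without either DcKO array of E17.5 and 0 without any other array. The median genotype difference of the 165 at E16.5 was -0.29 to -0.07 over these settings except without the second DcKO array of E16.5 (-0.004). A full-length match of probes to genes was not run, since no probe could be matched to a protein or transcript here. With 2 arrays a group, and stage on separate slides, no test of the stage change is given.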
